A study of Homo sapiens with 2 samples.

Results

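The androgen glucuronidation enzymes described here are the UGT2 glucuronosyltransferases UGT2B4, UGT2B7, UGT2B10, UGT2B11, UGT2B15, UGT2B17, UGT2B28 and UGT2A3, together with UGDH and UGP2, which make the sugar donor. Members were the array's probe sets whose platform gene symbol names 1 of these genes. This gave 10 of 54675 probe sets, for 7 of the 10 genes. No probe set carries the symbol of UGT2B7, UGT2B10 or UGT2B11 in the annotation used here, so these genes were not analysed here. No listed probe set was shared by several UGT2B genes. The compared samples were C4-2B-MDVR, a human prostate cancer line that had been selected from C4-2B during long exposure to the antiandrogen enzalutamide, and its parent C4-2B, which is sensitive to the drug. Both lines grew in RPMI-1640 with serum and were left untreated, and total RNA of each was hybridised to 1 Affymetrix expression array. The free-text note of the resistant sample names another, docetaxel-resistant line. The cell line label was followed, and each difference is C4-2B-MDVR by that label minus C4-2B. With 1 array per line there is no spread between replicates, no test was possible, and each difference compares these 2 arrays.

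Glucuronidation attaches glucuronic acid to a small lipophilic molecule, which makes it soluble and ready for export. In prostate cells UGT2B15, UGT2B17 and UGT2B28 place this group on dihydrotestosterone, testosterone and their reduced metabolites, which ends their action on the androgen receptor. The donor is UDP-glucuronate. UGP2 makes UDP-glucose from glucose 1-phosphate, and UGDH oxidises UDP-glucose to UDP-glucuronate.

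The sequence before the transcription start is shown to set a transferase gene beside the genes of the donor enzymes. It is a description, and no relation to the array values was tested. RefSeq promoters (GRCh38.p14) matched 7 of the 10 genes, namely UGT2B7, UGT2B10, UGT2B11, UGT2B15, UGT2A3, UGDH and UGP2. The 250 bases before the start are printed for the 3 of these genes that had signal above the detection floor, UGT2B15 (chr4:68670653-68670902, minus strand), UGDH (chr4:39527440-39527689, minus strand) and UGP2 (chr2:63840719-63840968, plus strand). Capitals mark the FOX factor core TGTTTAC, here on the opposite strand, and the androgen receptor half-site AGAACA.
UGT2B15: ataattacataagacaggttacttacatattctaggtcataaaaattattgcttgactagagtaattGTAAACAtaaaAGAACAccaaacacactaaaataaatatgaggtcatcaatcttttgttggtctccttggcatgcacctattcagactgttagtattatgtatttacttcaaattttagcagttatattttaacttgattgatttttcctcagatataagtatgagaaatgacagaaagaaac
UGDH: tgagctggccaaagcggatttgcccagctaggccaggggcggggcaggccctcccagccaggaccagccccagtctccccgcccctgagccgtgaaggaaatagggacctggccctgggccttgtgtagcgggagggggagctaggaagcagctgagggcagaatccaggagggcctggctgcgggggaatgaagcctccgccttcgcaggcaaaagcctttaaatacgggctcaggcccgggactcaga
UGP2: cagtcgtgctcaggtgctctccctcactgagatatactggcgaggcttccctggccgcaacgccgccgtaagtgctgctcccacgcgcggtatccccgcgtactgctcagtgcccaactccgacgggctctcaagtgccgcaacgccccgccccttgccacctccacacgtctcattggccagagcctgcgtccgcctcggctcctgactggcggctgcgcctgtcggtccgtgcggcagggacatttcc

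The 5 matched UGT2 promoters were poor in G and C and those of the donor enzymes were rich. No promoter was matched for UGT2B4, UGT2B17 or UGT2B28, so the description does not cover these genes. G and C made up 28.4% of the UGT2B15 window, 66.0% of the UGDH window and 67.2% of the UGP2 window. Over the 5 UGT2 promoters the share ran between 28.0% and 32.8%. The median of all 35116 promoters of that length was 58.0%, and 3.61% of them lay at or under 32.8%. UGT2B10 and UGT2B11 promoters were 90.2% identical over their alignment, and UGT2B15 shared 70.6% with UGT2B10 and 71.4% with UGT2B11. Identity between UGT2B15 and UGDH was 41.5%.

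In the UGT2B15 window TGTTTAC lay at bases 183 to 177 before the start and AGAACA at bases 172 to 167. Searched on both strands, 2.98% of all promoters held TGTTTAC and 12.4% held AGAACA. No other of the 7 windows held either. The element TATAAA, searched on the gene's strand, was found in UGT2B10 and UGT2B11 and in 6.80% of all promoters. Its matches began 244, 230 and 179 bases before the start in UGT2B10, and 248 and 183 bases before it in UGT2B11. None of these matches overlapped another. These are letter matches and not measured binding sites.

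Of the 3 UGT2 transferases counted as above the detection floor, UGT2B28 was 4.35-fold lower on the C4-2B-MDVR array. The UGT2B28 value rests on 1 probe set that may also bind other transcripts. UGT2B17 was lower and lay under the floor on the C4-2B-MDVR array. UGT2B15 was slightly lower (−0.42 on the log2 scale), and the donor enzymes UGDH (0.39) and UGP2 (0.29) were slightly higher. UGT2B15, UGDH and UGP2 all lay within 2-fold, and with 1 array per line there is no replicate spread to set their differences against. The detection floor was each array's median intensity, which was 43.5 for C4-2B-MDVR and 41.9 for C4-2B, and a gene counted as above it when its brighter value reached that array's floor. Of the 7 genes with a probe set, 5 were above the floor and UGT2B4 and UGT2A3 were under it on both arrays. A measured difference of 2-fold or more, which is 1 on the log2 scale, was counted. By that count 2 of the 5 genes were lower, beside 3.5% of all 13437 genes above the floor, and 0 were higher, beside 3.17%. UGT2B17 passed the floor through its C4-2B value alone, so a lower value was the one direction it could show. The median difference of the 5 genes was −0.42, beside 0.04 over all genes above the floor.

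UGT2B28 conjugates several androgens and some bile acids. Its probe set 211682_x_at had an intensity of 118 in C4-2B-MDVR cells and 513 in C4-2B cells. Both values were above the floor. The log2 difference was −2.12, or 4.35-fold lower in C4-2B-MDVR, and 81 of 13437 genes had a more negative one. The ending x_at is the manufacturer's mark for a set with probes that may also bind other transcripts. UGT2B28 had no other probe set, so no second reading of it exists.

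UGT2B17 conjugates testosterone, dihydrotestosterone and androsterone. Its probe set 207245_at read 24.6 in C4-2B-MDVR cells and 68.9 in C4-2B cells. The C4-2B-MDVR value was under the floor of 43.5 and the C4-2B value above the floor of 41.9. The measured difference was −1.49 on the log2 scale, and 189 genes had a more negative one. Taken against the floor, UGT2B17 was at least 1.58-fold lower in C4-2B-MDVR, which is short of 2-fold. With every value under a floor raised to that floor, 1 of the 5 glucuronidation genes was still 2-fold or more lower, beside 3.14% of all genes, and 0 were higher, beside 2.76%. Without probe sets marked x_at, a choice made after the data were seen, 3 of the 5 had a value above the floor and 1 of these, UGT2B17, was lower by that measure, beside 3.55% of all genes.

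UGT2B15 acts mainly on dihydrotestosterone and on its product androstanediol. The brightest of its 3 probe sets, 207392_x_at, had 361 in C4-2B-MDVR cells and 483 in C4-2B cells, a log2 difference of −0.42. The probe set 216687_x_at had 82.4 in C4-2B-MDVR cells and 99.6 in C4-2B cells, a difference of −0.27. Both sets were slightly lower and within 2-fold, and both carry the x_at mark. The set without that mark, 217175_at, read 10.7 in C4-2B-MDVR cells and 11.2 in C4-2B cells, under the floor on both arrays, so it gives no direction.

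The remaining transferases with a value had little signal. UGT2B4, a liver enzyme that conjugates bile acids, read 6.41 in C4-2B-MDVR cells and 6.36 in C4-2B cells. UGT2A3, which also conjugates bile acids, read 6.58 in C4-2B-MDVR cells and 7.45 in C4-2B cells. Values this far under the floor carry no order, so no difference is drawn from them.

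The enzymes that supply UDP-glucuronate were above the floor on both arrays. UGDH (203343_at) had an intensity of 486 in C4-2B-MDVR cells and 372 in C4-2B cells. The log2 difference of 0.39 is 1.31-fold higher, and 2123 genes had a more positive one. UGP2 (205480_s_at) had 707 in C4-2B-MDVR cells and 578 in C4-2B cells, a difference of 0.29 or 1.22-fold. Its other set, 232180_at, was under the floor with 13.4 in C4-2B-MDVR cells and 10.1 in C4-2B cells. Both donor enzymes thus stayed within 2-fold.

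**Figure D1:**
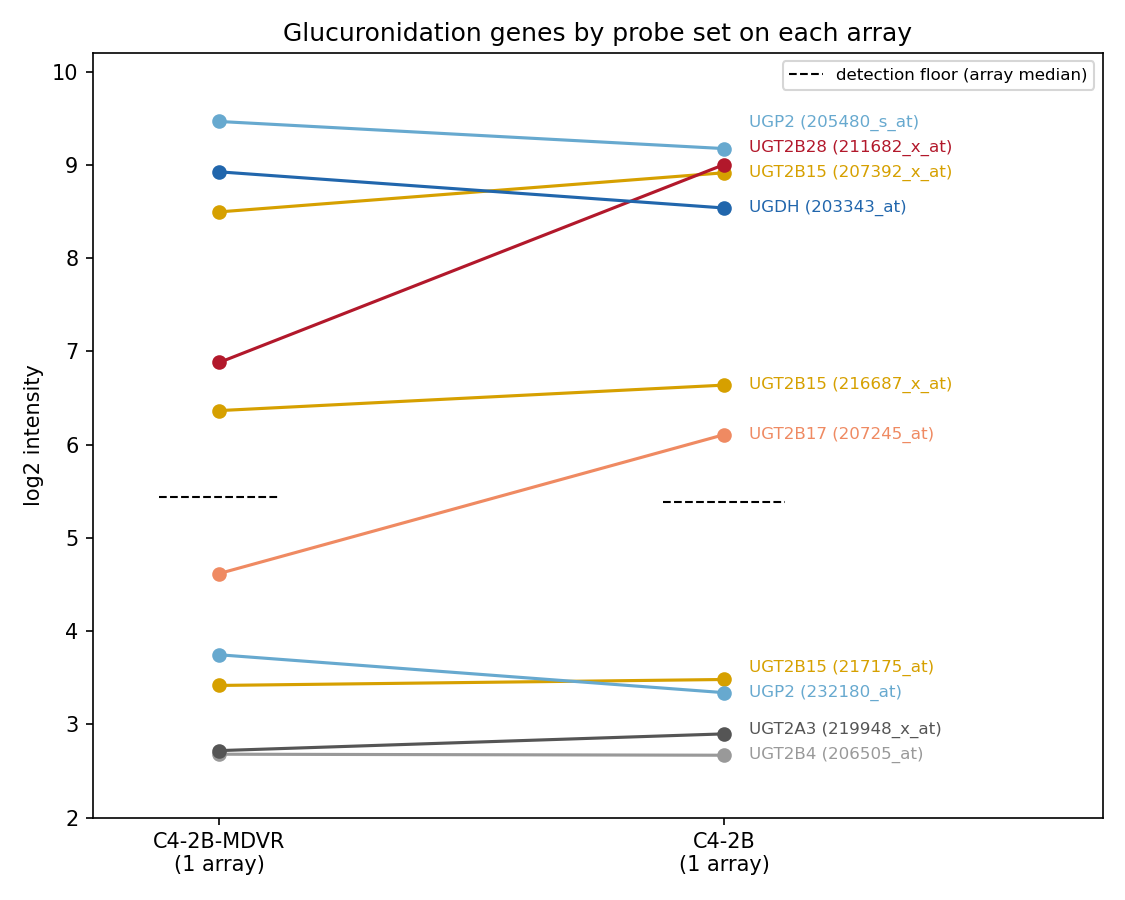
Log2 intensity (vertical axis) of each of the 10 probe sets on the C4-2B-MDVR array and on the C4-2B array, 1 array per line, with a line joining the readings of 1 probe set and dashed bars at each array's detection floor. UGT2B28 has the steepest line, with a difference of −2.12, and UGT2B17 crosses the floor, while UGDH and the brighter UGP2 set are slightly higher in C4-2B-MDVR.

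**Figure D2:**
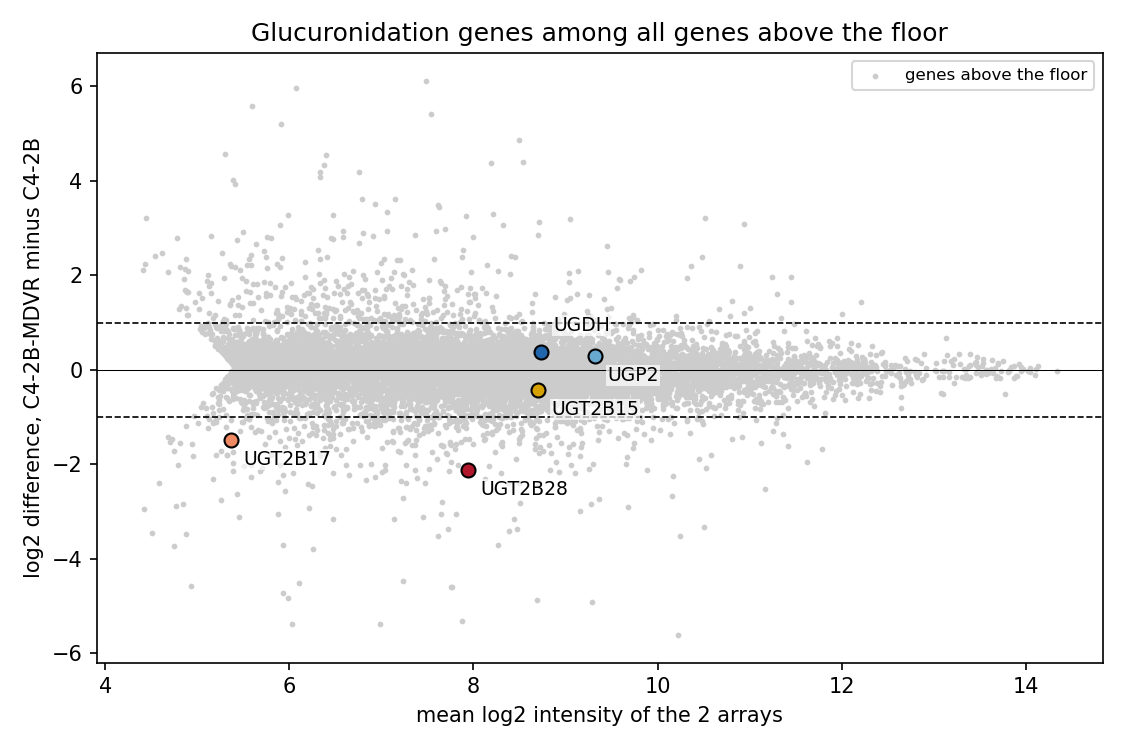
Log2 difference, C4-2B-MDVR minus C4-2B, against the mean log2 intensity of the 2 arrays for the 13437 genes above the floor (grey) and the 5 glucuronidation genes among them (coloured and named). Dashed lines mark 2-fold, and UGT2B28 (−2.12) and UGT2B17 (−1.49) lie under the lower one while UGT2B15, UGDH and UGP2 lie between the lines.

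The gene whose pair of log2 intensities on the 2 arrays lay nearest to that of UGT2B28 was ANKRD29, an ankyrin repeat protein, at a Euclidean distance of 0.07. It read 118 in C4-2B-MDVR cells and 539 in C4-2B cells. THAP5 (distance 0.17) and NUP58 (0.29), a nuclear pore protein, followed. With 2 arrays the likeness rests on 2 values per gene.

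The UGT2 genes lie side by side on chromosome 4, and among the genes next to them ODAM was the 1 above the floor that differed by 2-fold or more. RefSeq gene order starts the cluster with UGT2B17 and UGT2B15, places UGT2B28 after UGT2B11, and ends with UGT2B4, UGT2A1 and UGT2A2. Among the 10 protein-coding genes before the cluster 4 were above the floor, with differences between −0.34 for the centromere protein CENPC and 0.04 for the RNA reader YTHDC1. The gene next to UGT2B17, TMPRSS11E, was under the floor with 14.7 in C4-2B-MDVR cells and 34.6 in C4-2B cells. Among the 10 genes after the cluster 2 were above the floor. The sulfotransferase SULT1B1 differed by −0.06. ODAM, an odontogenic protein, had 29.5 in C4-2B-MDVR cells, under the floor, and 120 in C4-2B cells, a bound of at least 2.76-fold lower.

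Over the nearest 20 genes above the floor on each side of the cluster, 0 before it and 1 after it were 2-fold or more lower and 1 on each side was 2-fold or more higher, with median differences of −0.07 and −0.09. Over the whole of chromosome 4, 51 of 419 protein-coding genes with signal above the floor were lower by 2-fold or more, which is 12.2% beside 3.5% of all genes, and 13 were higher. UGDH lies elsewhere on the same chromosome, and 1 of the 20 genes before it and 2 of the 20 after it were 2-fold or more lower, with 1 before it and 0 after it higher.

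**Figure D3:**
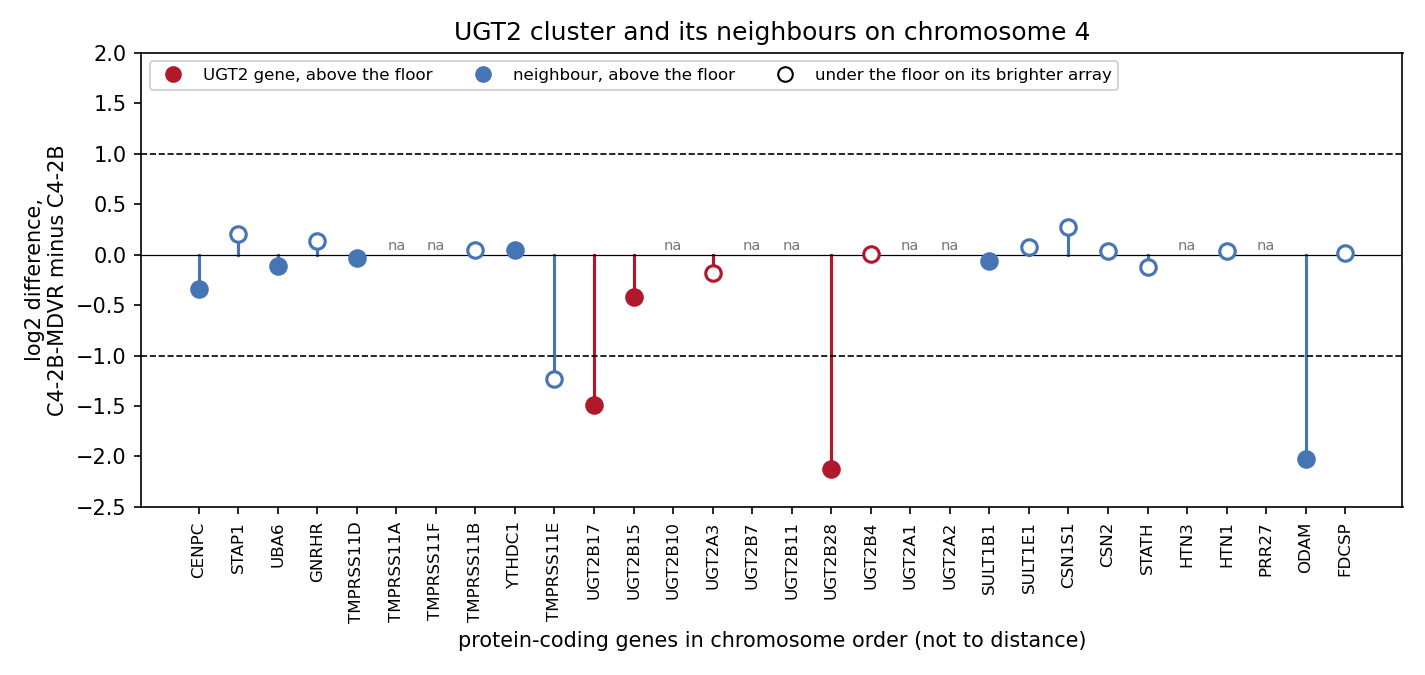
Log2 difference, C4-2B-MDVR minus C4-2B, of the UGT2 genes (red) and the 10 protein-coding genes on each side (blue) in chromosome order, with filled points for genes above the floor, open points for genes under it, na where no single-symbol probe set was used, and dashed lines at 2-fold. UGT2B28 (−2.12), UGT2B17 (−1.49) and, outside the cluster, ODAM (−2.02) are the filled points beyond 2-fold.

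In the related lists described from here on, 2-fold counts stand beside 3.5% of all genes above the floor lower and 3.17% higher. No list was tested against these shares, and 1 gene in a short list is no result about that list. Among other UGT genes 4 of 14 had a single-symbol probe set, and UGT8 was the 1 above the floor. UGT8 adds galactose to ceramide. It had 117 in C4-2B-MDVR cells and 356 in C4-2B cells (−1.61), and its other set differed by −1.26. The UGT1A genes, which conjugate bilirubin, oestrogens and many drugs, share their 3′ exons and were read by 7 probe sets that each carry several UGT1A symbols. The 4 of them above the floor were higher in C4-2B-MDVR by 0.02 to 0.57 on the log2 scale, all within 2-fold. They read common sequence, so they are not separate readings and name no gene. The 1 row shared by UGT2A1 and UGT2A2 was under the floor.

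In UDP-sugar supply and use 13 of 16 genes had signal above the floor. Of these, 1 was higher by 2-fold or more and 0 were lower. That gene was PGM1, which interconverts glucose 6-phosphate and the glucose 1-phosphate that UGP2 uses. PGM1 (201968_s_at) had an intensity of 1241 in C4-2B-MDVR cells and 142 in C4-2B cells. The difference of 3.13 was 8.75-fold, both values were above the floor, and no second PGM1 probe set was listed. The related mutase PGM2 differed by −0.27. UXS1, which turns UDP-glucuronate into UDP-xylose, differed by −0.40. SLC35D1, which carries UDP-glucuronate into the endoplasmic reticulum where the UGTs work, was under the floor on both arrays, and SLC35D2 differed by 0.42. The median of the 13 was −0.25.

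Of 14 genes for enzymes that build sugar chains holding glucuronate or take glucuronate off conjugates, 9 had signal above the floor. The 2 that were lower by 2-fold or more were the chondroitin chain enzymes CHSY1 (−1.23) and CSGALNACT2 (−1.05). The other CSGALNACT2 sets, both above the floor, differed by −1.01 and 0.12. GUSB, the lysosomal enzyme that takes glucuronic acid off conjugates again, had 956 in C4-2B-MDVR cells and 780 in C4-2B cells (0.29). None of the 9 was higher by 2-fold, and their median was 0.13.

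Of 9 transporters of glucuronides and other conjugates 5 were above the floor, and ABCC4 was the 1 beyond 2-fold. ABCC4, an export pump of the plasma membrane, had 255 in C4-2B-MDVR cells and 1706 in C4-2B cells (−2.74), and the other 2 of its sets above the floor differed by −2.43 and −1.94. ABCC1 differed by −0.73, ABCG2 by 0.76 and ABCC3 by 0.07. ABCC2, the canalicular pump of liver, was under the floor.

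Other enzymes that act on androgens gave 14 of 22 genes above the floor, with 3 higher and 1 lower by 2-fold or more. The reductases AKR1C1 (2.94) and AKR1C2 (2.25) were higher, as was AKR1C3 (4.02, at least 4.01-fold against the floor). AKR1C2 converts dihydrotestosterone to androstanediol, a substrate of UGT2B15 and UGT2B17. AKR1C3 passed the floor through its C4-2B-MDVR value alone, so a higher value was the only direction it could show. Another set above the floor differed by 1.91 for AKR1C1 and by 3.45 for AKR1C2, the reverse order. AKR1C1 and AKR1C2 are near-identical and all their sets above the floor carry the x_at mark, so their separate values are uncertain. The steroid sulfatase STS was lower by its brightest set (−1.28), while its other sets above the floor differed by −0.35 and 0.05. Its remaining set, 203769_s_at, was under the floor on both arrays. HSD17B6, which oxidises androstanediol back, differed by −0.46. SULT2B1, a sulfotransferase, differed by 0.22.

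Of 21 listed symbols of transcription factors with known action on UGT2B genes, of which PREP1 is another name for PKNOX1, 12 had a single-symbol probe set and 10 were above the floor. The other 9 were not analysed here. PPARG was the 1 beyond 2-fold, with 221 in C4-2B-MDVR cells and 58.3 in C4-2B cells (1.92), from its 1 listed probe set. FOXA1, a pioneer factor of prostate epithelium, had 989 in C4-2B-MDVR cells and 1047 in C4-2B cells (−0.08). CEBPA (−0.11), NFE2L2 (−0.23) and VDR (−0.14) were within 2-fold. These are RNA levels, and the part of any factor in the UGT2B values was not tested.

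**Figure D4:**
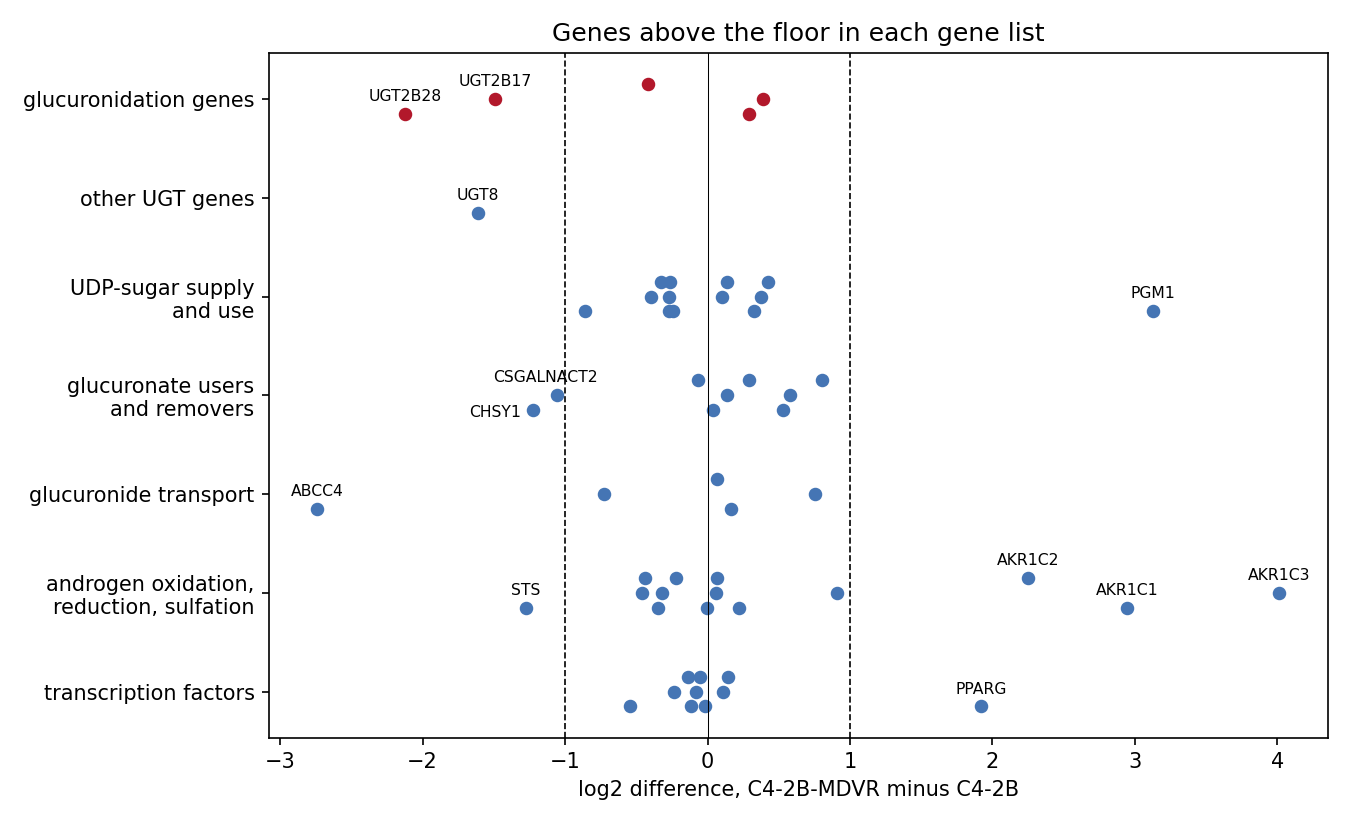
Log2 difference, C4-2B-MDVR minus C4-2B, of the genes above the floor in the glucuronidation set (red) and in 6 related lists (blue), each point 1 gene from 1 array per line, spread vertically for legibility, with dashed lines at 2-fold and names for genes beyond them. UGT2B28, UGT2B17, UGT8, ABCC4, STS, CHSY1 and CSGALNACT2 lie on the lower side and PGM1, PPARG and the 3 AKR1C genes on the higher side.

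Markers of the labelled cell type had signal above the floor. Some markers of other cell types passed it too, so passing the floor does not by itself identify a cell type. Of 10 luminal prostate markers 9 were above the floor, among them HOXB13 (0.05) and KRT18 (−0.10), with KLK3 (−5.61), SLC45A3 (−3.42) and KLK2 (−2.10) lower in C4-2B-MDVR. The other sets above the floor ran between −6.24 and −0.35 for KLK3 and between −2.37 and −0.88 for KLK2. Among 6 hepatocyte markers, listed because liver is rich in UGT2B enzymes, ALB, APOB, SERPINA1 and FGB were under the floor on both arrays. APOA1 (0.05) and TTR (0.19) were above the floor on both arrays and differed little. The 6 fibroblast, 5 blood and 4 endothelial markers with a probe set had 2 genes above the floor in each list and 0 beyond 2-fold by the brightest set, though 2 dimmer COL1A1 sets were at 1.07 and 1.20.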

How the data were processed

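Total RNA of both lines was amplified, fragmented, biotin-labelled and hybridised, per the labels' protocols. These name a whole-transcript amplification kit, whereas the annotated array type is designed toward the 3′ end of transcripts, and the effect of this on the intensities was not tested. The authors deposited 1 intensity per probe set and array, which by its range is linear. How they corrected background and normalized is not given in the sources used here. Log2 was taken of the deposited intensities with no further scaling. The table held 0 further sample columns. A platform annotation of 2016 names 42898 probe sets, 41097 with 1 symbol and 1801 with several, and 11777 are unnamed here. By Entrez identifier 41043 of the single-symbol sets matched RefSeq genes (GRCh38.p14) and 0 symbols changed. The symbols given were thus already those of RefSeq, and the match does not show that names were unchanged since 2016. The probe set with the highest mean stood for a gene. A bound sets the dimmer value at its array's floor. The number of arrays limits the precision, and no p-value or SE is given.

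The members and lists were chosen with earlier results of these data known. Named genes were all members, list members above the floor beyond 2-fold or else the one with the largest difference, and the 3 genes nearest to UGT2B28. Further list members, the chromosome 4 neighbours and the motifs were named after values were seen. Alternatives were median centring, quantile normalization, loess (span 0.3), the mean of a gene's sets, rows with several symbols, floors at the 25th or 75th percentile or none, values raised to the floor, and 1.5-fold or 3-fold thresholds. Steps were tested on simulated shifts. Python 3.11.15, numpy 2.4.6, pandas 2.3.3, statsmodels 0.14.6, biopython 1.88 and matplotlib 3.10.9 were used.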

Additional observations from a re-analysis of the deposited data

How the results depend on the processing

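UGT2B28 differed by between −2.17 and −2.08 in the 9 alternatives that gave it a value, UGDH by between 0.33 and 0.46 and UGP2 by between 0.24 and 0.37. UGT2B15 ran between −0.47 and −0.06, with −0.06 coming from its set without the x_at mark, which was under the floor. UGT2B17 was at −0.66 when values below a floor were raised to that floor, and beyond 2-fold in its other 9 alternatives, though under the 75th percentile floor on both arrays. The count of 2-fold or more lower genes was 1 in place of 2 with the floor at the 75th percentile, with values raised to the floor, with a 3-fold threshold, and without x_at probe sets. That last alternative was chosen after seeing the data. It left UGT2B28 and UGT2A3 without a value and gave a median of 0.29 over the 3 genes still above the floor, in place of −0.42 over 5. That median was −0.06 over the 4 genes above the 75th percentile, −0.18 when no floor was set, −0.25 with the mean of a gene's sets, and between −0.47 and −0.34 under the 3 scalings. The count of higher genes was 0 in all alternatives run. Over all genes, 470 of the 13437 above the floor were lower and 426 higher as deposited. The mean of a gene's sets gave 302 lower and 293 higher of 11772 genes. The 75th percentile floor gave 359 lower and 280 higher of 8529 genes. Of 13437 genes, the 1.5-fold threshold gave 1252 lower and 1110 higher, and the 3-fold threshold 161 lower and 195 higher. No paired analysis was possible because each line has 1 array. A drop of UGT2B17 below the floor cannot be sized, and UGT2B28 rests on 1 probe set that may bind related transcripts.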
